A study of Mus musculus with 8 samples.

Results

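Gene expression in mouse back skin was compared between 1 array 4 d after hair plucking with wax and 1 array from skin only shaved. These 2 arrays are members of a series of 8, and the 6 others are plucked skin at 12 h, 1 d, 2 d, 6 d, 10 d and 50 d. The mice were female C57 BL/6, an inbred black-haired strain, and the labels name no mutant allele or drug. All mice, the shaved control included, had an earlier wax stripping that set the follicles to the same phase, and the control was sampled right after shaving. Both samples were 10 weeks old per the labels, as were the 12 h, 1 d and 2 d samples, the 6 d and 10 d samples were labelled 11 weeks and the last sample, 50 d, was labelled 17 weeks, while the protocol text gives a younger age. The material is labelled adipose cell, but the series' design describes a macro-environment outside the follicle that holds fat and dermis. Each sample is 1 array, and the labels do not say how many mice it holds, so no difference below has a test and the spread between mice is unknown.

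Hair follicles cycle through rest (telogen), growth (anagen) and regression (catagen), and pulling the club hairs out of resting follicles starts a new growth phase. In early growth the hair germ next to the dermal papilla divides, forms the matrix and pushes down into the fat layer. Matrix cells then give rise to the inner root sheath, which moulds the hair, and to the hair shaft, while melanocytes in the bulb begin to make pigment. The fat layer around the follicles also changes with the cycle, and it exchanges WNT, BMP, hedgehog and growth factor signals with them.

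Each value is a level, the log2 of the array's processed signal minus the 75th percentile of that array, and a difference is the 4 d level minus the control level. A gene counted as measured when its brightest probe passed the scanner software's background test on the brighter array of the pair, which held for 28885 of 34790 gene names. Where no probe of a gene was well above background on the dimmer array, the fold is a bound: the dimmer side was set to the dimmest usable signal of that array, or to the gene's own signal if that was higher, and the text says at least. Levels of different probes are not comparable with each other. Repeated spots of a probe differed by a median SD of 0.063 on the control array and 0.078 on the 4 d array, and different probes of 1 gene differed in their difference by a median SD of 0.21, over 8924 genes. Between 72.9% and 81.2% of spots were well above background on the 8 arrays, with 75.3% on the control and 77.4% at 4 d, and the number of arrays limits the precision. Near-identical genes, such as hair keratins, keratin-associated proteins and globins, can share hybridisation.

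At 4 d, 1722 genes (5.96% of those measured) were at least 2-fold higher than in shaved skin and 1881 (6.51%) were at least 2-fold lower. With another background correction, normexp, the counts were 1125 and 837, so the number of genes past 2-fold depends on the background correction. With signal well above background required on both arrays they were 1333 and 1496. The differences of all measured genes had a median of -0.12, with 39.1% above 0 and 60.9% below, and their 5th and 95th percentiles were -1.13 and 1.17. Of the higher genes 190 were at least 10-fold apart and 8 at least 100-fold, against 51 and 1 of the lower genes. All these counts, and those of the lists below, take a dim array at its own signal and not at its bound. For 382 higher and 372 lower genes no probe was well above background on the dimmer array. The folds of these genes are bounds, which can be below 2-fold. The genes nearest the threshold had differences of 1.00 inside and 0.999 outside on the higher side. Of the higher genes 1338 (77.7%) were also above every other array of the series, 340 of them by at least 2-fold. Among the lower genes 1254 (66.7%) were below every other array, but 53 of them by at least 2-fold. Both sets were chosen for their 4 d level against the control, which in itself favours being highest or lowest at 4 d. Over all measured genes, 15.5% were highest at 4 d and 25.0% lowest, and these shares are the background for the counts given below. They are no like comparison for the chosen higher and lower genes. All comparisons of the series share the 1 control array. Of the 1881 lower genes, 1050 (55.8%) were highest on the control array of all 8, so that plucked skin was below it at every time. The lower genes were chosen for a control level above the 4 d level, which favours this count. The same share over all measured genes was not counted.

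**Figure D1:**
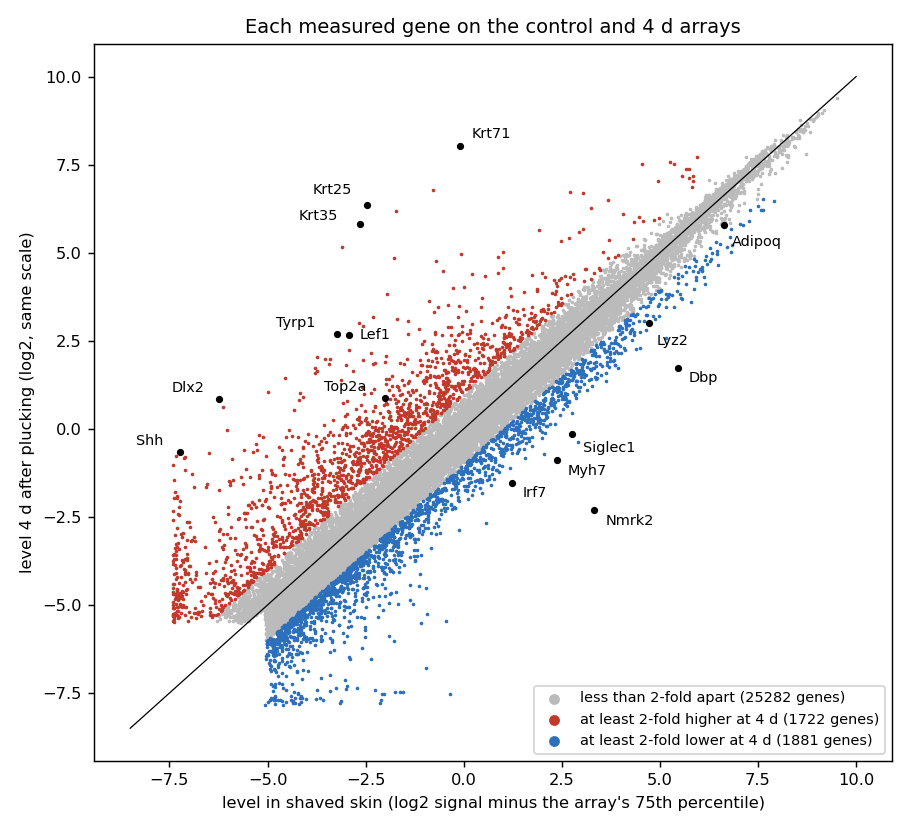
Level of each of the 28885 measured genes on the control array (x axis) and on the 4 d array (y axis), both as log2 signal minus the array's 75th percentile; each point is a gene, the line marks equal levels, and black points carry their symbol. Red points are the 1722 genes at least 2-fold higher at 4 d and blue points the 1881 at least 2-fold lower; the hair follicle keratins Krt25, Krt35 and Krt71 are among the points farthest above the line.

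The tissue check gave both fat and other cells. All 20 mature adipocyte markers were well above background on both arrays, among them Adipoq, the fat hormone adiponectin, with levels of 6.64 and 5.79, and Cfd, adipsin, with 8.81 and 8.42. All 20 skeletal muscle markers were as well, and so were 19 of 19 fibroblast, 18 of 19 endothelial and 24 of 24 macrophage markers. Keratins of the epidermis and follicle, such as Krt5 (3.69 and 6.49) and Krt14 (1.25 and 3.39), were measured on both arrays, so neither sample is pure fat. Keratins of the follicle's inner root sheath and hair shaft were as well, such as Krt71 (-0.086 and 8.04) and Krt35 (-2.64 and 5.81). The samples were thus not limited to tissue outside the follicle. In such mixed tissue, more cells of a type and more RNA in each of those cells cannot be told apart. Of 16 housekeeping genes 0 were 2-fold higher and 1 lower, with a median difference of 0.026, and the lower gene was B2m, a part of the MHC class I complex (7.30 and 6.22).

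The inner root sheath was the structure with the largest differences. Of 10 structural genes of this sheath, 9 were at least 2-fold higher at 4 d and 0 lower (background 5.96%), and the median difference was 7.06, or 6.30 with the 1 dim gene at its bound, beside -0.12 over all genes. Krt25, a type I keratin of the sheath, had a level of -2.47 on the control array and 6.35 at 4 d, a 451-fold difference and the largest among genes measured on both arrays. Its neighbours Krt27 (-1.72 and 6.18) and Krt28 (-3.10 and 5.15) were 239-fold and 305-fold higher, and Krt26 was at least 20.1-fold higher. The type II keratins that pair with them were higher too: Krt71 went from -0.086 to 8.04, 279.8-fold, and Krt73 from -0.075 to 4.98, 33.2-fold. Tchh, trichohyalin, the matrix protein in which sheath filaments are embedded, stood at -0.78 and 6.77, 187-fold higher. The exception was Krt74, another type II sheath keratin, with a difference of 0.19. Padi3, which converts arginines of trichohyalin to citrulline, was 45.1-fold higher (-2.56 and 2.93), whereas Tgm3, a transglutaminase that cross-links it, had a difference of 0.14. Of the 11 transglutaminases and deiminases measured 3 were 2-fold higher, with a median of 0.14.

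The sheath genes were not flat before 4 d. Against the same control their medians were 2.86, 0.55 and 3.70 on the 12 h, 1 d and 2 d arrays, then 7.89, 6.51 and 2.13 on the 6 d, 10 d and 50 d arrays. For Krt71 the levels were 3.28, 0.49 and 3.92 on the 3 earlier arrays and 7.82, 6.89 and 2.52 on the 3 later ones. The 4 d level was thus far above all earlier arrays and close to the 6 d level.

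The 250 bases before and 50 after the annotated start of Krt25 are shown because this gene had the largest difference of the comparison. The sequence is RefSeq's on GRCm38.p6, chr11:99322902-99323201 on the minus strand, and capitals mark a TCF/LEF match (AACAAAG, the reverse complement of CTTTGTT) and a TATA box (TATAAA).

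Krt25: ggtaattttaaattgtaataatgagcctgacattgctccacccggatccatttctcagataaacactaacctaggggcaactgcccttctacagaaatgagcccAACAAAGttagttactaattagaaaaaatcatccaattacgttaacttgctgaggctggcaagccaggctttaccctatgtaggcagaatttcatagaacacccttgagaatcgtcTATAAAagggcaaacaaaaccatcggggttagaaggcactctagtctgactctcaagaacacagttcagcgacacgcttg

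A TATA box, searched as TATAAA on both strands, was found in 7 of 9 promoters of inner root sheath genes, 6 of 8 of hair shaft keratins and 37 of 42 of keratin-associated proteins, against 13.6% of all 32851 promoters in the table. A TCF/LEF match was searched as CTTTG followed by 2 bases that are each A or T. In the same lists it was found in 3 of 9, 4 of 8 and 16 of 42 promoters, against 16.9% of all. Among hair matrix and shaft transcription factors it stood in 2 of 21 promoters (9.52%). Among WNT inhibitors, effectors and targets it stood in 4 of 24 (16.7%), about the share of all promoters. The spelling CTTTGAA contains TTTGAA, which is searched again below under another name. Hair keratin genes stem from tandem copies and resemble each other, so their promoters are not independent, and a match is a description of the letters and not a binding site.

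Hair shaft keratins were higher, most of them still below their 6 d level. Of 14 shaft keratins measured (Krt39 was not), 11 were at least 2-fold higher at 4 d and 0 lower, with a median of 2.10. Krt35, a type I keratin that appears early in the hair cuticle and cortex, was -2.64 in shaved skin and 5.81 at 4 d, 349.6-fold higher, and its 6 d level of 5.72 was about the same. Krt33a (-3.74 and 1.65) and Krt33b (-4.09 and 0.91), cortex keratins, were 41.9-fold and 32.0-fold higher. Krt31, a cortex keratin, stood at -0.86 and 1.23 at 4 d but at 4.32 at 6 d, and Krt86 at -0.61, 1.11 and 4.68. The list's median was 5.11 at 6 d, and 1 of 14 genes had its highest level at 4 d. Krt85, the type II keratin of the precortex, had a difference of 0.053. S100a3, a calcium-binding protein of the hair cuticle, was 55.0-fold higher (-1.95 and 3.84), with 5.64 at 6 d.

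Keratin-associated proteins, which cross-link shaft keratins late in hair formation, had smaller differences at 4 d than at 6 d. Of 47 measured genes 24 were at least 2-fold higher at 4 d and 1, Krtap31-2, was lower (-2.25 and -3.34). The median difference was 1.06, against 2.04 on the 2 d, 5.72 on the 6 d and 5.29 on the 10 d array, and 0 of 47 had its highest level at 4 d. On the linear scale, as multiples of each array's 75th percentile, their summed signal was 24.4 on the control array and 63.7, 38.4 and 482 on the 2 d, 4 d and 6 d arrays. The same sum over the inner root sheath genes was 3.33, 35.7, 598 and 616, so the sheath sum at 4 d was already near its 6 d value while that of the keratin-associated proteins was not. Within the family, Krtap17-1 had levels of -4.20 and 0.83, 32.8-fold higher, and Krtap9-3 of -4.62 and -0.59, 16.3-fold. Krtap3-3 was at least 29.2-fold and Krtap28-13 at least 25.6-fold higher, both from a control level not well above background. For 36 of 47 genes the 2 d level was above the 4 d level, among them Krtap4-2 (-1.25 against -1.64) and Krtap8-1 (0.59 against 0.14). For Krtap11-1 it was below (0.074 against 0.62). These 3 genes were picked after their values were seen.

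Keratins of the outer layers were higher too. Of 9 keratins of the companion layer and outer root sheath 7 were at least 2-fold higher, with a median of 2.13. Krt75, the type II keratin of the companion layer between the sheaths, was at least 52.8-fold higher, from -6.13, not well above background, to 0.62. Krt17 (1.92 and 5.63), found in the outer root sheath and in activated epidermis, was 13.1-fold higher, and Krt79 (3.25 and 6.28), a keratin of the infundibulum, 8.15-fold. The basal keratins Krt5 and Krt14 were 6.97-fold and 4.39-fold higher, Krt15 of the bulge 3.05-fold, and Krt6b had a difference of -0.55.

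The keratin genes lie in 2 clusters, and higher genes were found along both. In the type I cluster, between probe positions chr11:99095480-100117594 on mm9, 43 of 46 keratin and keratin-associated genes were measured, of which 31 were at least 2-fold higher and 2 lower. The probes of Krt25 (chr11:99177867-99178575), Krt26, Krt27 and Krt28 (chr11:99226329-99226388) follow each other there. The type II cluster, chr15:101180014-101862400, had 24 measured keratins, 14 higher and 3 lower. The lower genes of both clusters were Krt8 (3.64 and 1.82) and Krt18 (4.66 and 3.23), the filament pair of simple epithelia, together with Krt7 (-0.25 and -1.36) and, in the type I cluster, Krtap31-2, given above, and Krt19 (3.64 and 1.88), a keratin of simple epithelia and the bulge. Krt8, Krt18, Krt7 and Krt19 were 3.55-fold, 2.70-fold, 2.16-fold and 3.37-fold lower, and at 6 d they stood at 1.57, 2.75, -1.96 and 2.07. Krt13 (-0.73 and 2.69) and Krt23 (-0.055 and 2.75), also in the type I cluster, were 10.7-fold and 7.01-fold higher. These 6 genes were named for their place in the clusters after their values were seen. On chromosome 14, the neighbours Gjb2 (-1.78 and 4.84) and Gjb6 (-5.00 and 1.05), which encode gap junction proteins of keratinocytes, were 98.6-fold and 66.2-fold higher.

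Transcription factors of the hair matrix and shaft were higher, and most had their highest level at 4 d. Of 25 measured, 16 were at least 2-fold higher and 0 lower, with a median of 1.84, and 17 had their highest level of the series at 4 d, beside a background of 15.5%. The median was 0.45 at 2 d and 1.14 at 6 d. Lef1, the partner of beta-catenin in WNT signalling, which binds hair keratin promoters, had levels of -2.93 and 2.66, 48.1-fold higher, and its 2 probes differed by an SD of 0.43. Hoxc13, a direct regulator of hair keratins whose loss leaves mice bald, stood at -3.75 and 2.03, 54.9-fold higher. It was the single higher gene of 7 measured Hoxc genes, and Hoxc10 was lower (-1.91 and -2.95). Dlx2 was at least 61.3-fold and its neighbour Dlx1 at least 8.73-fold higher, both not well above background in shaved skin, and Dlx4 (-2.72 and 0.28) was 8.02-fold higher. Foxn1, mutated in nude mice, was at least 22.7-fold higher, from -5.27 to -0.59. Vdr (-0.75 and 3.31), the vitamin D receptor needed for hair cycling, was 16.7-fold higher, Ovol1 (-4.46 and -0.023) 21.6-fold and Msx2 (-0.72 and 2.02) 6.68-fold. Factors of the inner root sheath lineage had smaller differences: Gata3 (2.30 and 4.22) was 3.78-fold and Cux1 (2.24 and 3.86) 3.07-fold higher. Below 2-fold were Foxe1 (0.98), Prdm1 (0.98), Hr, hairless (0.68), Foxi3 (-0.19) and Elf5 (-0.48).

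Markers of the stem cell compartment were split. Of 17 bulge and hair germ markers 7 were at least 2-fold higher and 1 lower, with a median of 0.93. Among the higher genes were ones also used by growing follicles: Lhx2 (-1.71 and 3.12, 28.5-fold), Cdh3, P-cadherin of germ and matrix (-2.53 and 0.98, 11.4-fold), Lgr5 (-1.12 and 1.61, 6.64-fold) and Sox9 (-1.60 and 0.62, 4.65-fold). Of the markers of the resting bulge, Cd34 had a difference of -0.51 and Nfatc1 of -0.36, while Krt15, given above, was higher. Fgf18, a growth factor made in the resting bulge, was 2.19-fold lower (1.36 and 0.23).

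Among 25 dermal papilla markers 12 were at least 2-fold higher and 2 lower, and the median was 0.77, or 0.46 with dim genes at their bound. The papilla is the mesenchymal cluster that instructs the matrix. The list's largest difference was that of Lef1, given above, a gene also in the matrix factor and WNT lists. Lists that share genes are not independent. Corin, a protease of the papilla, was 9.32-fold higher (-4.91 and -1.69), Scube3 17.9-fold (-2.32 and 1.84) and Vcan, versican, 4.00-fold (-0.10 and 1.90). The secreted factors Fgf7 and Fgf10 went the other way, with differences of -0.43 and -1.33, and Prom1 was 2.22-fold lower. Alpl, alkaline phosphatase, had a difference of 0.31 and Crabp1 of 0.46. In all, 16 of 25 papilla markers were highest at 4 d.

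**Figure D2:**
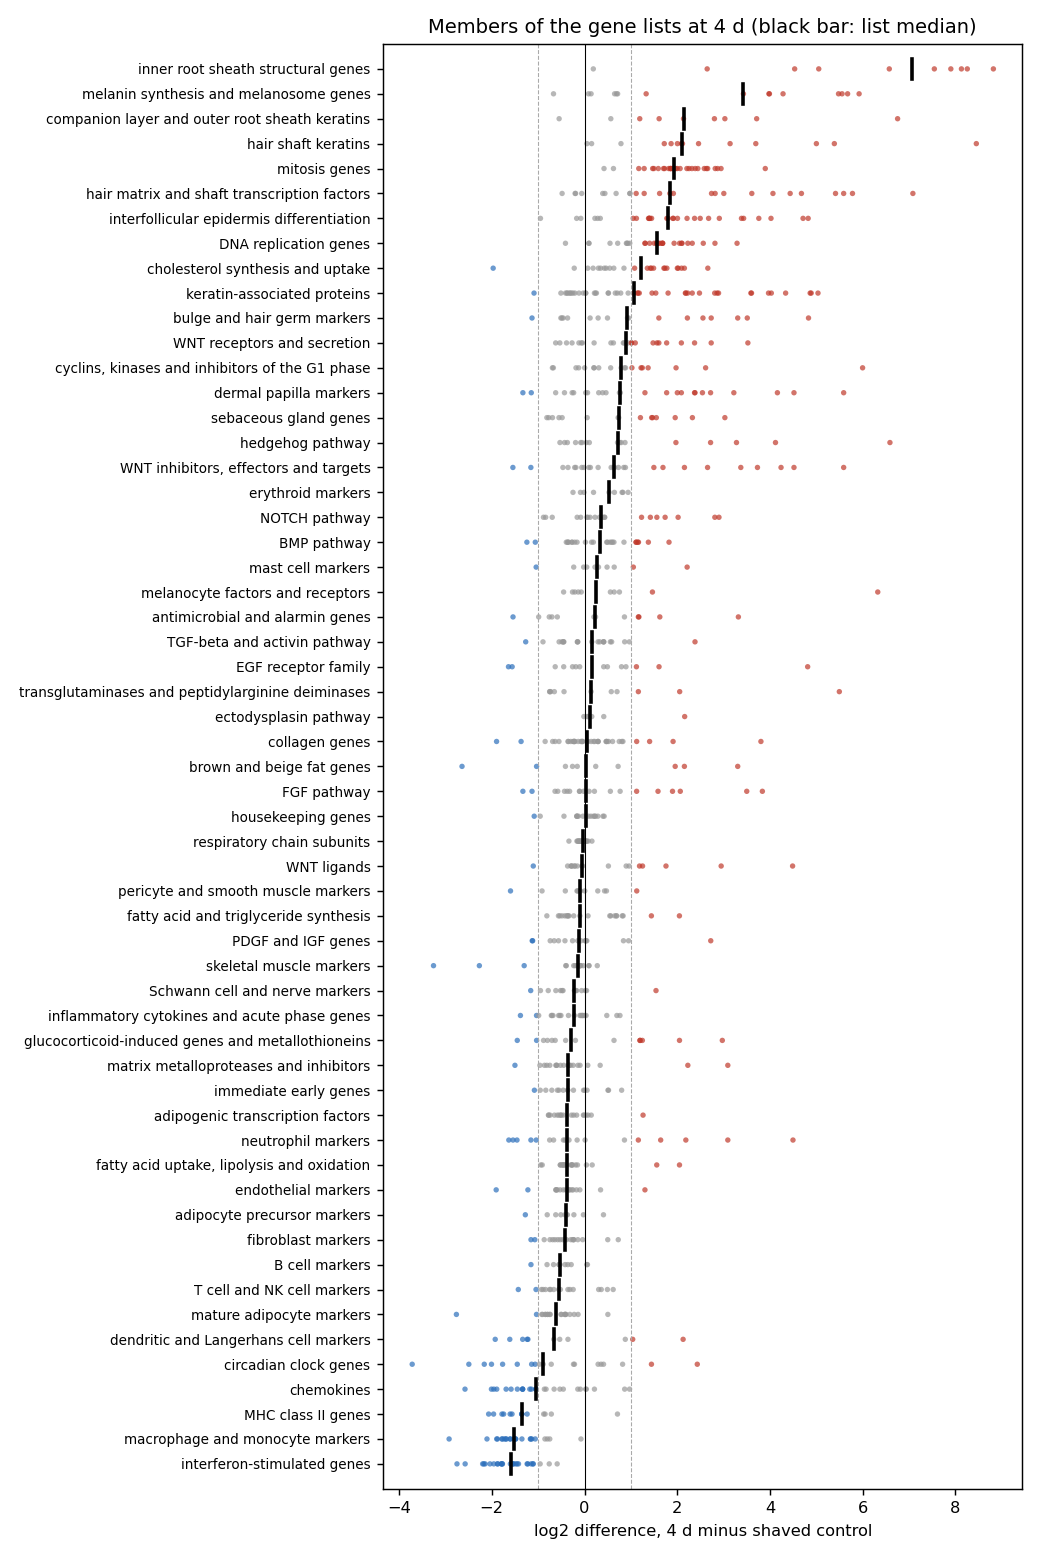
Log2 difference between the 4 d and control arrays for each measured member of the 57 gene lists; each point is a gene, red at least 2-fold higher, blue at least 2-fold lower, grey between, dashed lines mark 2-fold and black bars the list medians, with dim genes at their own signal. Inner root sheath genes have the highest median (7.06) and interferon-stimulated genes the lowest (-1.58).

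Pigment genes were higher as a group. Of 15 melanin and melanosome genes 9 were at least 2-fold higher and 0 lower, with a median of 3.43, beside medians of 0.0021, 0.33 and 0.46 at 12 h, 1 d and 2 d. The 6 d median was 3.70. The 3 enzymes of melanin synthesis were unequal. Tyrp1 went from -3.23 to 2.69, 60.6-fold, and Dct, dopachrome tautomerase, from -0.71 to 4.77, 44.6-fold. Tyr, tyrosinase, which starts the pathway, had levels of -1.96 and -0.63, 2.51-fold higher, with an SD of 0.23 over its 2 probes. Pmel, the protein of the melanosome's fibrils, was 51.1-fold higher (-2.67 and 3.00) and Mlana 15.9-fold (-1.15 and 2.83). The melanosome transporters Slc24a5 (-4.52 and -0.24) and Slc45a2 (-4.95 and -1.52) were 19.4-fold and 10.8-fold higher, Oca2 at least 15.4-fold and Gpr143 at least 9.84-fold. Genes that move melanosomes in many cell types were near the control: Rab27a 0.65, Myo5a 0.14 and Mlph -0.67 on the log2 scale.

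Most regulators of pigment cells were within 2-fold of the control. Of 10 melanocyte factors and receptors measured 2 were at least 2-fold higher, with a median of 0.24 that was -0.10 when genes dim on either array were left out. Mc1r, the melanocortin receptor that favours black pigment, was at least 19.8-fold higher, from -7.12, not well above background, to -0.79. Mitf, the master factor of melanocytes, had a difference of -0.070, Sox10 of -0.21, Kit of 0.64 and Ednrb of -0.45.

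The promoters of Tyrp1 (chr4:80833963-80834262 on the plus strand) and Dct (chr14:118052197-118052496 on the minus strand) are shown because both genes share the M-box, TCATGTG, a motif known from pigment genes. The sequences are RefSeq's on GRCm38.p6 from 250 bases before to 50 after the start, with the motif, or its reverse complement CACATGA, in capitals.

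Tyrp1: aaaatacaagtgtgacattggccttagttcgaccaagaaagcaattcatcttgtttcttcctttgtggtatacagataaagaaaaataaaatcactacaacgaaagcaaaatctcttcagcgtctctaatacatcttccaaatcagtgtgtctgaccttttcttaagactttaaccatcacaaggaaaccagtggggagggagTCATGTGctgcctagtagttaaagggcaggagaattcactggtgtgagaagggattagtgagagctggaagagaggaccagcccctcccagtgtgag
Dct: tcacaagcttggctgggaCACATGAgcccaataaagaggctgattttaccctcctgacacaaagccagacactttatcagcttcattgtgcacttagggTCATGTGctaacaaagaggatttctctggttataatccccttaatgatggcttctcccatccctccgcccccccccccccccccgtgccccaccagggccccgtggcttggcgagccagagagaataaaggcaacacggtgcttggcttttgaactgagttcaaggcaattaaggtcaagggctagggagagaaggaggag

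The M-box stood in 5 of 12 promoters of the pigment list, on either strand, against 3.77% of all promoters.

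**Figure D3:**
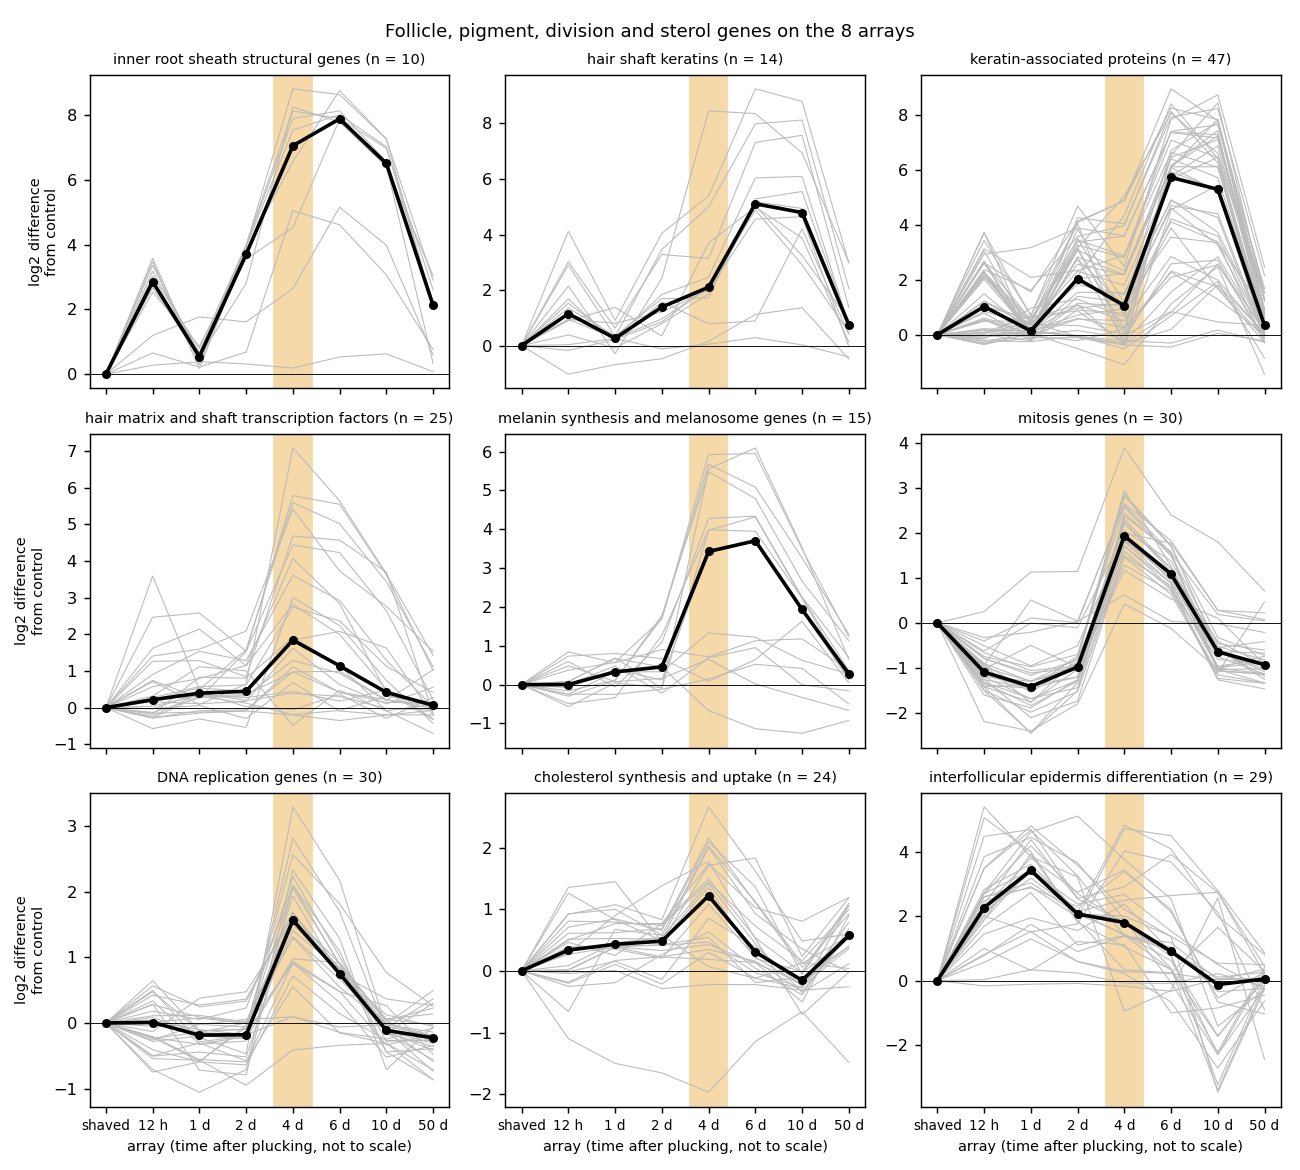
Log2 difference from the shaved control on each of the 8 arrays for 9 gene lists; grey lines are genes, black points list medians, the shaded column is 4 d, the time axis is not to scale and n is the number of measured genes. Inner root sheath and pigment genes are high at 4 d (medians 7.06 and 3.43) and at 6 d (7.89 and 3.70). Keratin-associated proteins have a median of 1.06 at 4 d and 5.72 at 6 d. Matrix factor, mitosis and DNA replication genes have their highest median at 4 d.

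Cell division genes had their highest levels at 4 d. Of 30 mitosis genes 28 were at least 2-fold higher than in shaved skin and 0 lower, with a median of 1.94, and 30 of 30 were higher at 4 d than on any other array. Top2a, topoisomerase II of dividing cells, stood at -2.01 and 0.86, 7.31-fold higher, and Mki67, which encodes the Ki-67 antigen, at 1.18 and 4.00, 7.05-fold. Both were below the control at 1 d, at -3.78 and -0.12. Cyclin B1, Ccnb1 (-0.93 and 1.65), and its kinase Cdk1 (-1.91 and 0.48) were 5.99-fold and 5.23-fold higher, and the spindle motor Kif11 (-2.82 and 0.12) 7.70-fold. The list's medians on the 12 h, 1 d and 2 d arrays were -1.09, -1.42 and -0.98, so the control array lay above the 3 earlier plucked arrays, and the 6 d median was 1.09. Against the 2 d array the 4 d difference is thus larger than against the control, which all these values share.

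DNA replication genes were higher too, with a smaller median. Of 30 measured, 21 were at least 2-fold higher and 0 lower, with a median of 1.57, and 29 were highest at 4 d. Uhrf1, which carries DNA methylation through replication, was 9.78-fold higher (-0.39 and 2.90), and Rrm2, the small subunit of ribonucleotide reductase, 7.03-fold (-0.13 and 2.68). All 6 subunits of the replicative helicase were past 2-fold, from Mcm5 (-0.22 and 1.88, 4.30-fold) and Mcm2 (4.14-fold) through Mcm7 (3.22-fold), Mcm4 (2.94-fold) and Mcm3 (2.94-fold) to Mcm6 (2.33 and 3.83, 2.84-fold). Pcna, the sliding clamp, had a difference of 0.93, and E2f1 of -0.41 while E2f2 was 5.90-fold higher (-0.057 and 2.50).

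Regulators of the G1 phase were more mixed, with 7 of 19 at least 2-fold higher and a median of 0.79. Mycn, a growth-promoting relative of Myc, had levels of -4.55 and 1.45, 63.9-fold higher, while Myc itself had a difference of 0.0033. Mycn stood at -3.84, -4.31 and -2.83 on the earlier arrays and at 0.46 at 6 d. The cyclins Ccnd1 (1.79 and 3.16) and Ccnd2 (2.39 and 3.61) were 2.59-fold and 2.33-fold higher, Ccnd3 had a difference of -0.69, and the inhibitor Cdkn2b was 3.93-fold higher (-1.62 and 0.36).

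The promoters of Cdk1 (chr10:69352863-69353162 on the minus strand) and Mcm6 (chr1:128359656-128359955 on the minus strand) are shown, on GRCm38.p6 from RefSeq, for the motifs of mitosis and replication genes. In Cdk1 the capitals mark CHR elements (TTTGAA) and CCAAT boxes (as ATTGG), and in Mcm6 E2F matches, of which the first 2 overlap on opposite strands.

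Cdk1: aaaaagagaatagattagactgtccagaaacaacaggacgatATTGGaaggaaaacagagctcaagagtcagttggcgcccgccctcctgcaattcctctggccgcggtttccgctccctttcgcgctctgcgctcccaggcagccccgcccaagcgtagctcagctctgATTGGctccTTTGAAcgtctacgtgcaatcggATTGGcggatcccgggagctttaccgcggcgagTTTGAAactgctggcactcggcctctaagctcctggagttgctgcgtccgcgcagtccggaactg
Mcm6: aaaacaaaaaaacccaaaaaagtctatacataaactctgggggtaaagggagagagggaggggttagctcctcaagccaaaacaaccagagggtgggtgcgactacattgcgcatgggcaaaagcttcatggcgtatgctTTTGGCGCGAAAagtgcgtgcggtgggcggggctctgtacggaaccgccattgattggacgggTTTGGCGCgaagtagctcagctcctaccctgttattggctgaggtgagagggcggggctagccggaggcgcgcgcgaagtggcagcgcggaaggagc

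The CHR element, searched as TTTGAA on both strands, stood in 20 of 26 promoters of the mitosis list against 17.9% of all, and CCAAT in 21 of 26 against 37.4%. For E2F, TTT followed by 2 bases that are each C or G and then CGC was searched, and 12 of 31 replication promoters held at least 1 against 2.26% of all.

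Hedgehog ligand and target genes were higher. Shh, sonic hedgehog, the ligand that the growing matrix sends to itself and to the papilla, was not well above background in shaved skin (-7.24) and stood at -0.66 at 4 d, at least 21.8-fold higher. On the 6 other plucked arrays, from 12 h to 50 d, it was -7.77, -7.17, -7.30, -2.83, -6.44 and -7.07. The genes that report the pathway were higher as well: Gli1, its transcription factor and target, went from -0.65 to 3.47, 17.4-fold, and the receptor and target Ptch1 from -3.46 to -0.18, 9.70-fold. Hhip, a decoy for the ligand and also a target, was 6.58-fold higher (-2.04 and 0.67), and Gli2 3.92-fold (-3.06 and -1.08). The other ligands Ihh and Dhh had differences of 0.037 and -0.37, and the transducer Smo of 0.79. In all 5 of 17 pathway genes were at least 2-fold higher, 0 lower, and 8 were highest at 4 d.

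**Figure D4:**
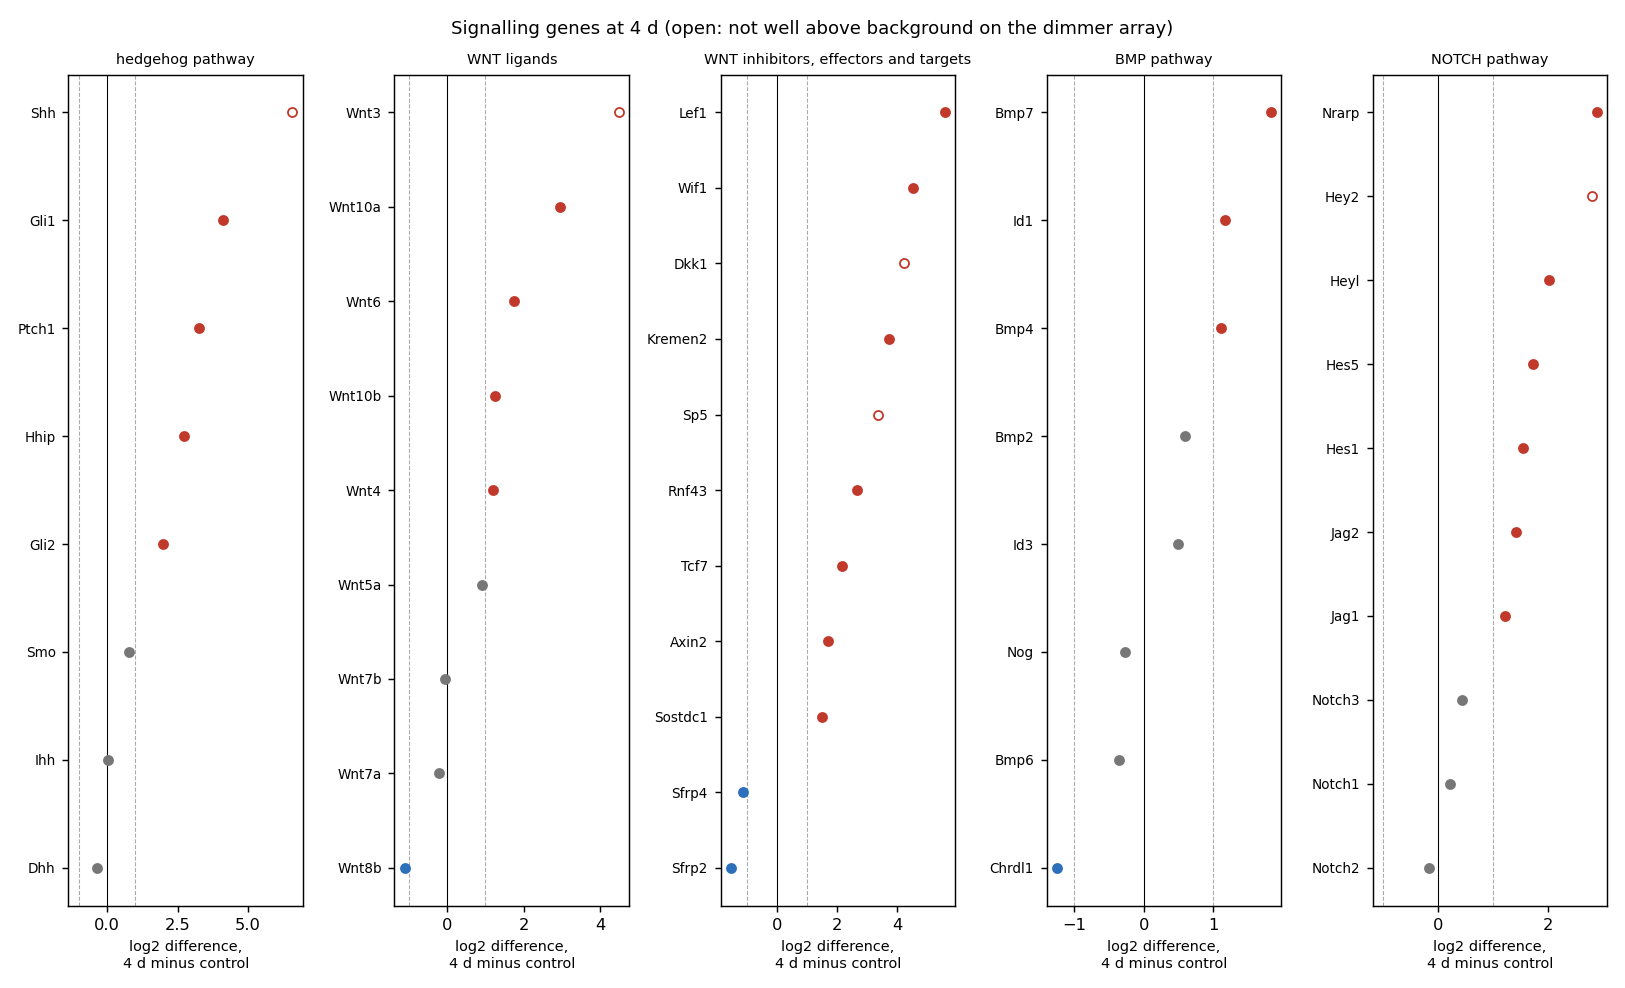
Log2 difference between the 4 d and control arrays for those genes of the hedgehog, WNT ligand, WNT inhibitor and target, BMP and NOTCH lists that the text gives with values; filled points were well above background on both arrays, open points were not on the dimmer one, and dashed lines mark 2-fold. Shh, Lef1, Bmp7 and Nrarp lead their lists, Wnt10a leads the WNT ligands measured on both arrays, and each panel has its own x scale.

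WNT ligands were split by member. Of 18 measured, 5 were at least 2-fold higher and 1 lower, with a median of -0.048. Wnt10a (-1.57 and 1.37), made by the follicle epithelium, was 7.71-fold higher, Wnt6 (-1.45 and 0.31) 3.38-fold, Wnt10b (-1.97 and -0.72) 2.38-fold, Wnt4 (0.92 and 2.11) 2.28-fold, and Wnt3 at least 4.86-fold from a level not well above background. Wnt5a had a difference of 0.90, Wnt7a of -0.21 and Wnt7b of -0.056, and Wnt8b was 2.15-fold lower (-3.27 and -4.37).

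Of 24 receptor, secretion and R-spondin genes 11 were at least 2-fold higher and 0 lower, with a median of 0.90, and 16 were highest at 4 d. Fzd10, a Frizzled receptor, was 11.5-fold higher (-1.02 and 2.51). Of the R-spondins, Rspo1 (-0.17 and 1.60) was 3.41-fold, Rspo2 (-4.33 and -1.96) 5.18-fold and Rspo3 (-2.46 and -0.37) 4.25-fold higher, while Rspo4 had a difference of -0.62. Their receptors Lgr5, Lgr6 and Lgr4 were 6.64-fold, 3.04-fold and 2.95-fold higher.

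Targets and inhibitors of the WNT pathway that passed 2-fold were mostly higher. Of 26 measured 9 were at least 2-fold higher and 2 lower. Axin2, a target that dampens the pathway, was 3.23-fold higher, the target Sp5 at least 4.80-fold, Rnf43, which removes Frizzled receptors, 6.29-fold (-1.95 and 0.70) and Tcf7 4.45-fold (-3.56 and -1.41). The secreted inhibitor Wif1 went from -2.56 to 1.96, 22.9-fold, Dkk1 was at least 4.37-fold higher and its co-receptor Kremen2 13.3-fold (-4.60 and -0.87). Sostdc1 was 2.82-fold higher (-0.49 and 1.01). The Frizzled-related proteins of the stroma differed from these: Sfrp2 was 2.92-fold lower (3.72 and 2.18) and Sfrp4 2.23-fold lower (3.96 and 2.81).

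BMP genes had small differences. The BMPs hold resting stem cells quiet and later drive shaft differentiation. Of 26 measured 6 were at least 2-fold higher and 2 lower, with a median of 0.34. Bmp7 (-0.14 and 1.68) was 3.54-fold and Bmp4 (1.43 and 2.55) 2.17-fold higher, while Bmp2 and Bmp6 had differences of 0.59 and -0.36. The target Id1 was 2.24-fold higher (1.59 and 2.75), and Id3 had a difference of 0.50. Of the antagonists, Chrdl1 (1.07 and -0.17) was 2.37-fold lower, and Nog, noggin, had a difference of -0.27. In the TGF-beta and activin list 1 of 21 was higher, Inhba, the activin A subunit (-2.45 and -0.062, 5.22-fold), and 1 lower.

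In the FGF list 6 of 20 genes were at least 2-fold higher and 2 lower. Fgfr3 (-0.74 and 2.76) was 11.3-fold and the target Etv4 (0.16 and 2.23) 4.19-fold higher. Fgf5, which ends hair growth and is lost in angora mice, was at least 2.92-fold higher, from -7.39, not well above background, to -3.56, with -2.27 at 6 d and -3.96 at 10 d. For Fgf21, the 4 d signal was no higher than the dimmest usable signal of the control array.

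Of 20 NOTCH genes 7 were at least 2-fold higher and 0 lower. The higher genes were 2 ligands, Jag1 (0.71 and 1.94, 2.35-fold) and Jag2 (-1.52 and -0.10, 2.68-fold), and 5 targets: Nrarp (-3.72 and -0.82, 7.46-fold), Hey2 (at least 3.50-fold), Heyl (4.05-fold), Hes5 (3.34-fold) and Hes1 (2.95-fold). The receptors Notch1, Notch2 and Notch3 had differences of 0.23, -0.16 and 0.43. In the ectodysplasin list, 1 of 6, Tnfrsf19, was higher (0.54 and 2.70, 4.47-fold), and the ligand Eda and receptor Edar had differences of 0.42 and 0.054. In the EGF family Ereg, epiregulin, was at least 6.35-fold and Epgn 3.05-fold higher, while Areg, amphiregulin (1.18 and -0.46), and the fat-derived Nrg4 were 3.11-fold and 2.95-fold lower. Igfbp2 was 6.60-fold higher (-1.89 and 0.84), and Igf1, the growth factor, 2.19-fold lower (3.52 and 2.39), with an SD of 0.37 over 5 probes.

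Genes of sterol synthesis were higher. Of 24 genes of cholesterol synthesis and uptake 13 were at least 2-fold higher and 1 lower, with a median of 1.22, and 16 were highest at 4 d. Sqle, squalene epoxidase, had levels of 0.16 and 2.81, 6.32-fold higher. The later enzyme Cyp51 was 4.45-fold higher (-2.71 and -0.55) and the isomerase Idi1 4.27-fold (0.34 and 2.44). The lower gene was Srebf2, the transcription factor of this pathway, at 1.57 and -0.40, 3.92-fold lower, and its 2 probes gave differences from -1.97 to 0.66. Its levels on the 6 other plucked arrays, from 12 h to 50 d, were 0.47, 0.072, -0.081, 0.43, 0.91 and 0.091. Among the 19 promoters found for this list, 16 held CCAAT, against 37.4% of all promoters. A sterol element (TCACNCCAC) stood in 1 of them, against 1.24% of all.

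Skin surface and gland genes were higher as well. Of 29 genes of epidermal differentiation 23 were at least 2-fold higher and 0 lower, with a median of 1.80, which was below the 3.42 seen at 1 d. Dsg1a, a desmosomal cadherin, went from -3.01 to 1.82, 28.3-fold. Flg, filaggrin (-2.97 and 0.79), was 13.5-fold, Sprr1a (1.01 and 5.03) 16.2-fold and the protease Klk7 (-1.98 and 1.40) 10.4-fold higher, while Krt10, the main suprabasal keratin (1.81 and 3.23), was 2.66-fold higher and Krt2 had a difference of -0.080. Of 15 sebaceous gland genes 7 were at least 2-fold higher and 0 lower, with a median of 0.74. They included Elovl4 (1.13 and 3.46, 5.02-fold), Fa2h (2.93-fold) and Awat1 (-1.93 and -0.46, 2.77-fold), while Mc5r and Soat1 had differences of -0.55 and -0.48. Most genes of these lists and of the follicle keratin lists are known from epithelium, although Pparg, in the sebaceous list, is also a fat cell gene. The share of epithelium in each sample was not tested as a part of their differences. The summed signal of the outer root sheath and companion keratins was 37.5 times the array's 75th percentile in the control and 253 at 4 d.

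Most fat cell genes were within 2-fold of the control. Of 20 mature adipocyte markers 19 had negative differences, as 60.9% of all genes did, and 2 were at least 2-fold lower (background 6.51%) and 0 higher, with a median of -0.62. Adipoq had a difference of -0.84, Lipe, hormone-sensitive lipase, of -0.90, Lep, leptin, of -0.75, Plin1, the lipid droplet coat protein, of -0.41 and Fabp4 of -0.50. The genes past 2-fold were Aqp7, the glycerol channel (0.31 and -0.73), and Nnat, neuronatin (2.04 and -0.72, 6.79-fold lower). In order of time on the 6 other plucked arrays, from 12 h to 50 d, the list's medians were -0.28, 0.37, 0.38, -0.80, -0.57 and 0.31. The adipocyte marker median was thus below the control at 12 h and from 4 d to 10 d. It was above the control at 1 d, 2 d and 50 d.

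Regulators of fat cells were within 2-fold with 1 exception. Of 18 adipogenic factors 1 was at least 2-fold higher, Klf5 (0.19 and 1.45), and 0 lower, with a median of -0.37. Pparg, the master factor of fat cells, had a difference of -0.77 and Cebpa of -0.46. Precursor markers had a median of -0.40, and Ly6a, Sca-1 of precursors and other stromal cells, was 2.42-fold lower (6.18 and 4.91). Fatty acid and triglyceride synthesis had a median of -0.10, near that of all genes. The list of fatty acid uptake, lipolysis and oxidation had a lower median, -0.38. Elovl6, which extends palmitate (1.86 and 3.91), and Scd2, a desaturase (2.81 and 4.25), were 4.13-fold and 2.72-fold higher, and Pdk4, which spares glucose (4.06 and 6.11), was 4.14-fold higher. Respiratory chain subunits showed the narrowest range, with 0 of 25 past 2-fold in either direction and differences from -0.34 to 0.16. In the brown and beige fat list Dio2 (-3.05 and -0.90) was 4.45-fold higher and Ucp1, the uncoupling protein of brown fat, at least 4.57-fold lower (-3.35 and -5.99).

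Macrophage genes were lower. Of 24 macrophage and monocyte markers 20 were at least 2-fold lower at 4 d and 0 higher, beside a background of 6.51%, with a median of -1.51, and 15 were lowest at 4 d of all arrays (background 25.0%). Cd68, a lysosomal marker, had levels of 5.87 in shaved skin and 3.97 at 4 d, 3.72-fold lower. Emr1, now Adgre1, the F4/80 antigen, stood at 3.93 and 2.14, 3.44-fold lower, and Csf1r, the receptor that keeps macrophages alive, at 6.81 and 5.68, 2.20-fold. The complement genes C1qa (5.52 and 3.83), C1qb and C1qc were 3.23-fold, 3.22-fold and 2.80-fold lower, Lyz2 (4.72 and 2.99) 3.31-fold and Aif1 (4.38 and 2.27) 4.30-fold. Siglec1, sialoadhesin, was 7.57-fold lower (2.76 and -0.16), but its 2 probes disagreed, with differences of -2.92 and -1.43. Itgam, CD11b, which neutrophils also carry, had a difference of -0.076 and Cx3cr1 of -0.75. Over the same 6 arrays the list's medians were -0.85, -1.02, -1.49, -0.47, -0.31 and -1.14, so every plucked array was below the shared control.

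Genes of MHC class II presentation were lower in the same way. Of 14 measured 10 were at least 2-fold lower and 0 higher, with a median of -1.35. The medians on the 6 other plucked arrays, from 12 h to 50 d, were -0.726, -1.12, -1.06, -0.81, -0.26 and -0.725, all below the shared control. The class II chains H2-Aa (3.64 and 2.04), H2-Ab1 (7.57 and 6.22) and H2-Eb1 (7.26 and 5.91) were 3.04-fold, 2.56-fold and 2.55-fold lower, the invariant chain Cd74 2.36-fold (7.04 and 5.81) and H2-DMa, which loads peptides, 3.89-fold (2.85 and 0.89). H2-Eb2 was above the control by 0.71. Among dendritic cell markers Itgax, CD11c, was 3.80-fold lower (0.90 and -1.02), and Cd207, langerin of Langerhans cells, had a difference of 0.88. In that list 5 of 11 were lower and 2 higher, of which Xcr1 lies at the dimmest usable signal and Epcam (-0.45 and 0.59) is also an epithelial gene.

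**Figure D5:**
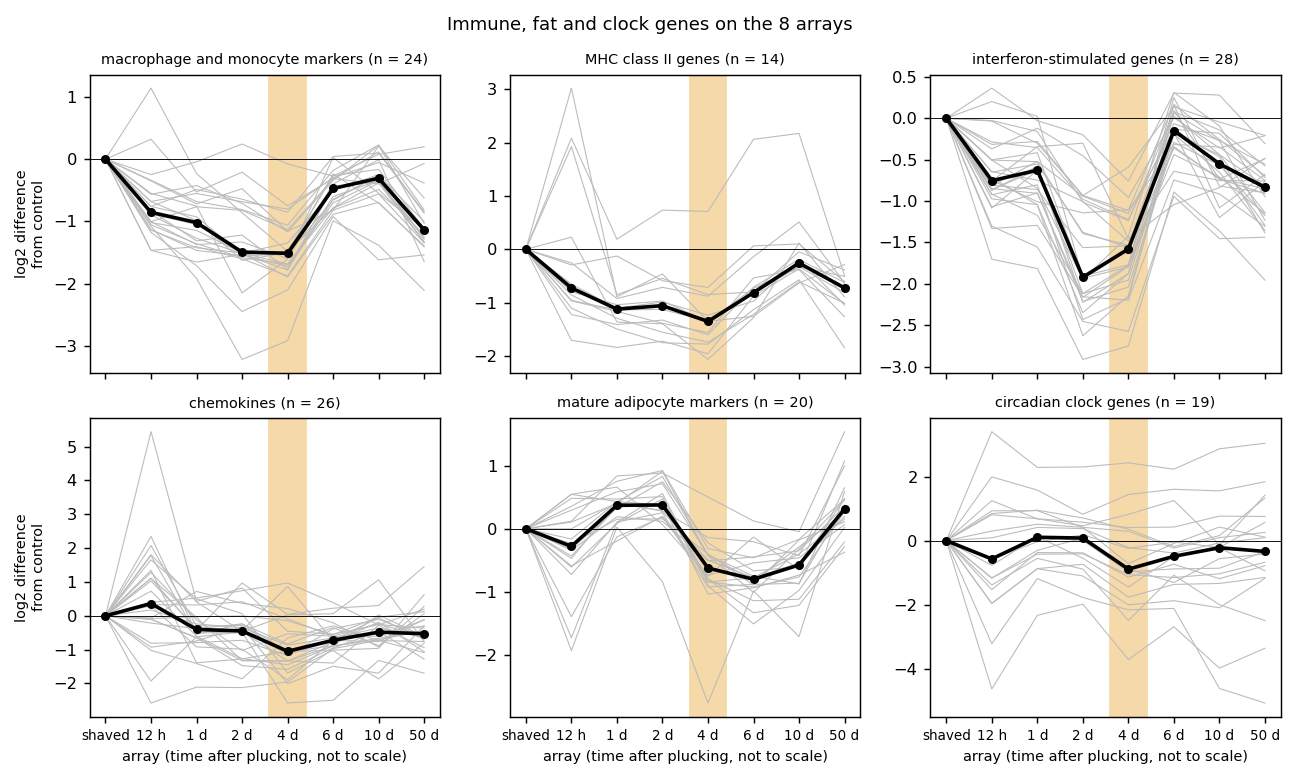
Log2 difference from the shaved control on each of the 8 arrays for 6 gene lists; grey lines are genes, black points list medians, the shaded column is 4 d, and the time axis is not to scale. Macrophage and interferon-stimulated medians are lowest at 2 d and 4 d. Adipocyte medians are below 0 at 12 h and from 4 d to 10 d, and the clock genes spread to both sides on every plucked array.

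Interferon-stimulated genes had the lowest list median of the comparison. Of 28 measured 25 were at least 2-fold lower and 0 higher, with a median of -1.58, and 0 of 28 had a positive difference. Irf7, the factor that amplifies the interferon response, went from 1.22 to -1.53, 6.73-fold lower. Bst2, tetherin, which holds virus particles at the cell surface, stood at 5.16 and 2.59, 5.95-fold lower, and Isg15, a ubiquitin-like protein, at 3.08 and 1.28, 3.47-fold. The RNA sensors and synthetases Oas1a (4.48 and 2.31), Oas2 and Oas3 were 4.51-fold, 3.67-fold and 4.42-fold lower, and Zbp1 4.58-fold (2.32 and 0.12). Stat2, a signal transducer of interferon receptors, had a difference of -1.54. Over those 6 arrays the medians were -0.75, -0.63, -1.92, -0.15, -0.55 and -0.83, the lowest of them at 2 d. Macrophages express many of these genes, and the part of their lower markers in this group was not tested.

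The promoters of Bst2 (chr8:71537423-71537722 on the minus strand) and Isg15 (chr4:156200769-156201068 on the minus strand) are shown because they hold the interferon-stimulated response element, searched as GAAA, any 2 bases and GAAA again on both strands. Capitals mark overlapping matches in RefSeq's GRCm38.p6 sequence.

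Bst2: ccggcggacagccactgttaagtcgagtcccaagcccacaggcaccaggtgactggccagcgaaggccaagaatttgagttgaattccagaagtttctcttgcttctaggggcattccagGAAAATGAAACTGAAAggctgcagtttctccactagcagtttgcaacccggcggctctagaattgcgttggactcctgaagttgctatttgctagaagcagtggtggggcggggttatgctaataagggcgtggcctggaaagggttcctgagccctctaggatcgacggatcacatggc
Isg15: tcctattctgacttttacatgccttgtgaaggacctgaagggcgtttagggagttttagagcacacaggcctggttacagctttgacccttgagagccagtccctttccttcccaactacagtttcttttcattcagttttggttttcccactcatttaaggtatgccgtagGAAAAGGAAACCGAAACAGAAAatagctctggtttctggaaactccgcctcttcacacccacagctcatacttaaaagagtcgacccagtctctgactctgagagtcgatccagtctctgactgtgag

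Of 21 promoters found for this list, 11 held the element, against 3.44% of all promoters.

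Many chemokines were lower. Of 26 chemokines measured 14 were at least 2-fold lower and 0 higher, with a median of -1.05. On the 6 other plucked arrays, from 12 h to 50 d, the medians were 0.36, -0.40, -0.45, -0.72, -0.48 and -0.53. Every plucked array from 1 d on was thus below the shared control. Ccl2, which draws monocytes, was 2.73-fold lower (2.28 and 0.83), Ccl9 3.00-fold (6.07 and 4.48), Ccl24 3.88-fold (3.71 and 1.76) and Cxcl9 4.02-fold (-0.23 and -2.24). Ccl2 stood at 3.01 at 12 h and 1.68 at 1 d, and Cxcl2, which draws neutrophils, had a difference of 0.040. Of 21 inflammatory cytokines and acute phase genes 2 were at least 2-fold lower and 0 higher, with a median of -0.22. Il1b, Il6 and Tnf had differences of -0.53, -0.56 and -0.051, and Tslp, a cytokine of the skin barrier, was 2.61-fold lower (0.26 and -1.12).

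Other immune cells gave weaker or mixed patterns. Neutrophil markers had 5 of 18 genes at least 2-fold higher and 5 lower, and the list's mean was 0.21 while its median was -0.38. Ngp, a granule protein, was at least 10.3-fold higher and S100a8 2.24-fold (-0.39 and 0.77), but S100a9, whose product pairs with that of S100a8, was 2.91-fold lower (1.11 and -0.43) and Ly6g 2.74-fold lower (1.72 and 0.27). T cell and NK cell markers had a median of -0.56 with 2 of 17 lower, B cell markers of -0.53 with 1 of 11, and mast cell markers of 0.26 with 1 of 10 lower and 2 higher. The T cell genes Cd3e and Cd8a had differences of -0.24 and -0.56.

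Stromal, vascular and muscle genes were mostly near the control. Fibroblast markers had a median of -0.42, with Lum, lumican (5.92 and 4.77), and Loxl1 (4.17 and 3.10) at least 2-fold lower, and Col1a1 had a difference of -0.041. Of 39 collagen genes 4 were higher and 2 lower. Col11a1 (-3.96 and -0.16) was 14.0-fold, Col12a1 (-0.89 and 1.02) 3.76-fold and Col17a1, the hemidesmosome collagen of basal keratinocytes (-0.84 and 0.56), 2.65-fold higher. Endothelial markers had a median of -0.38, and Lyve1, found on lymphatic vessels and on some macrophages, was 3.74-fold lower (2.69 and 0.78), as was the lymphatic gene Flt4 (-3.57 and -4.79, 2.33-fold). Pericyte markers (-0.10), Schwann cell and nerve markers (-0.22) and metalloproteases (-0.35) had 1, 1 and 1 genes at least 2-fold lower and 1, 1 and 2 higher. Of 20 muscle markers 3 were lower and 0 higher, with a median of -0.14. The lower genes are known from slow fibres: Myh7, slow myosin (2.37 and -0.89, 9.55-fold), Tnnc1 (-1.37 and -3.64, 4.82-fold) and Tnnt1 (3.38 and 2.08, 2.46-fold), while the fast myosin Myh4 had a difference of -0.10. Myh7 varied over the series, with -0.43, 4.18, 1.24, 0.064, 1.88 and 3.71 on the 6 other plucked arrays from 12 h to 50 d. Itgb1bp3, now Nmrk2, a nicotinamide riboside kinase of muscle, had the lowest difference of all genes measured on both arrays, 50.1-fold lower (3.33 and -2.32), and was as low at 10 d (-2.38) but not at 6 d (2.66).

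Clock genes were far from the control on both sides. Of 19 circadian genes 8 were at least 2-fold lower and 2 higher, with a median of -0.89. Dbp, an output gene that the clock drives, had levels of 5.45 and 1.73, 13.1-fold lower. Per2 (-1.25 and -3.75) and Per3 (-1.72 and -3.48), repressors of the clock, were 5.63-fold and 3.40-fold lower, Hlf 4.02-fold (0.71 and -1.30) and Gm129, now Ciart, 4.47-fold (-1.85 and -4.01). Arntl, the activator whose rhythm runs opposite to theirs, was 5.40-fold higher (-0.95 and 1.48), and Nfil3 2.72-fold (0.81 and 2.25). No label states the hour of sampling, so plucking and sampling hour cannot be told apart for these genes. With the 50 d array as the reference, Arntl turned to -0.61, Nfil3 to -0.40, Per2 to 0.0054 and Gm129 to at least 1.32, its 50 d signal being not well above background.

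The promoter of Ciart (chr3:95882179-95882478 on the minus strand), from RefSeq on GRCm38.p6, is shown because it holds 3 matches of the E-box CACGTG, in capitals, the motif through which the clock acts.

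Ciart: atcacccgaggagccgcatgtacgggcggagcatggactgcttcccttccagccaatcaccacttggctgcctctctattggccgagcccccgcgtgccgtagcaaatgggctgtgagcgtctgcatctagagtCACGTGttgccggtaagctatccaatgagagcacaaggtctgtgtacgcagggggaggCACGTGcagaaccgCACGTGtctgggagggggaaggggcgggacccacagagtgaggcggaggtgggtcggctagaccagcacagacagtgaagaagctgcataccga

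The E-box, a palindrome, stood in 6 of 21 promoters of the clock list against 7.15% of all, and the D-box TTATGTAA in 1 of 21 against 0.938%.

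Stress hormone and immediate early genes had no common direction. In the glucocorticoid list 5 of 14 genes were at least 2-fold higher and 2 lower, with a median of -0.30 but a mean of 0.23. The metallothioneins Mt2 (4.54 and 7.51) and Mt1 (5.84 and 7.03) were 7.85-fold and 2.29-fold higher and Fkbp5 2.29-fold (1.49 and 2.68), while Tsc22d3 was 2.05-fold lower (4.94 and 3.91). Of 16 immediate early genes 1, Zfp36, was at least 2-fold lower (0.72 and -0.36), and Fos and Egr1 had differences of -0.83 and -0.021. Erythroid genes, which come from blood, had a median of 0.53, and 0 of 9 was past 2-fold.

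Some genes outside the lists were among the largest differences. On the lower side Rerg, a Ras-related protein, stood at -1.38 and -4.86, 11.2-fold lower, and Speer2 at -1.28 and -4.99, 13.0-fold. Peli3, an E3 ubiquitin ligase of innate signalling, was 9.43-fold lower (0.56 and -2.68), Clca3, now Clca1, 7.28-fold (-2.15 and -5.01) and the interferon-induced GTPases Gbp1, now Gbp2b, 6.94-fold (-1.89 and -4.69) and Gbp8 6.68-fold (-2.61 and -5.35). Prok1, prokineticin, and Gpc2, a glypican, were not well above background at 4 d and Prok1 was at least 21.1-fold lower, while Gpc2 stood at -0.95 in shaved skin and -5.27 at 4 d. These differences rest on 1 probe a gene, except Gbp1 with 2. Counting dim arrays at their own signal, the control level of Rerg was above every plucked array, by 3.17 on the log2 scale. The same held for Speer2 (by 2.86), Peli3 (2.62), Prok1 (4.33), Gpc2 (4.32), Gbp1 (0.32) and Gbp8 (0.33). Clca3 was higher at 1 d (-1.19) than on the control array. On the 50 d array Rerg, Prok1 and Gpc2 were not well above background, and the 4 d level of Rerg was above its bound there by 0.48 on the log2 scale.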

How the data were processed

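One-colour Agilent mouse arrays were hybridised with Cy3-labelled RNA. Per the file headers, the authors deposited the intensity of each spot from Feature Extraction 10.5.1.1, with background subtracted, spatial and multiplicative detrending on and a surrogate for dim spots. Probe positions are on mm9. Control spots and outlier spots were left out, no spot was saturated, 13 of 55681 probes were dropped and the spots of a probe were averaged. Values are log2 minus each array's 75th percentile, and each gene is represented by its probe with the highest mean level of the 8 arrays. Software was Python 3.11.15 (numpy 2.4.6, pandas 2.3.3) and, for normexp with an offset of 50, limma 3.58.1 under R 4.3.3. Counting was checked on simulated data.

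With 1 array a side there is no test. Genes and the 57 lists were chosen with earlier results of these data known. Named genes are those with the 15 largest positive and 15 largest negative differences where neither array was dim, among probes with an established gene symbol, the 8 largest bounds each way, the 10 farthest above and below all other arrays, up to 6 leading members a list, every signalling gene past 2-fold, and further members named with their values; a few genes are not reported here. Of the list members, 5 had no match on the array and 7 were matched through another name. The accessions of 27229 probes matched a RefSeq gene table of GRCm38.p6, used for current symbols.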

Additional observations from a re-analysis of the deposited data

How the results depend on the processing

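The 4 d counts were within 1.5 times of 1722 higher and 1881 lower genes with quantile normalization (1878 and 1539), centring on the median of well-measured probes (1808 and 1709), a filter for signal on both arrays (1333 and 1496), no filter (1958 and 2558), the mean over probes (1699 and 1815), the brightest probe over the 2 arrays (1759 and 1885) and the 50 d array as the reference (1974 and 1539). The last of these shared 1422 higher and 334 lower genes with the main comparison, so most of the lower genes depend on which array is the reference. With normexp the counts were 1125 and 837, with a 1.5-fold threshold 3040 and 4918, and with a 3-fold threshold 1034 and 607. Of the 57 lists, 14 had a median of at least 1 in size, and 9 with the 50 d reference. The remaining causes were not tested.

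Sign changes were looked for only in list medians of at least 0.21 in size and in named genes at least 2-fold apart. With the 50 d reference these list medians changed sign: BMP pathway -0.013, neutrophil 0.59, mast cell -0.018, antimicrobial -0.0022, fibroblast 0.093, metalloprotease 0.027 and erythroid -0.21. Leaving out genes dim on either array turned melanocyte factors to -0.10 and antimicrobial genes to -0.19. The mean in place of the median turned neutrophil markers to 0.21 and glucocorticoid-induced genes to 0.23. Of the named genes, Areg turned to 0.024, Arntl to -0.61, Dio2 to -0.013, Elovl6 to -0.32, Gm129 to at least 1.32, Krtap31-2 to 0.34, Nfil3 to -0.40, Per2 to 0.0054, Rerg to at least 0.48 and Tslp to 0.033 with the 50 d reference, and Lrp2 to 1.25 with the brightest probe over the 2 arrays. Fgf21, Gpc2, Prok1 and Speer2 have no value against the 50 d array, since the signals there were too dim to compare. No named gene at least 2-fold apart changed sign with quantile normalization, centring or normexp, and smaller differences were not checked. No paired analysis was possible because each group has 1 array, and leaving out a replicate gives no value for the same reason. Signal near background limits the size of the folds written as at least.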

Other observations

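Some genes stood far above every other array at 4 d. Slc30a10, a metal ion exporter, was at least 16.8-fold higher than the control (-7.42 and -1.03) and not well above background on any of the 7 other arrays. With each dim array set to its dimmest usable signal, or to the gene's own if that was higher, it was at least 13.8-fold above all of them. On the same basis the meiotic gene Hormad1 was at least 5.59-fold, Rnf183 18.7-fold, Abcb5 3.39-fold, Rpusd2 10.9-fold and Ngp 8.49-fold above every other array. Pramef12, now Pramel13, was at least 33.7-fold above the control. These genes were not well above background on the control array, whereas Trim75 was (-4.88, and -1.25 at 4 d). Each of these values comes from 1 probe and 1 array. Among genes lowest at 4 d, Lrp2 was 3.00-fold lower than the control, but its 2 probes differed by an SD of 2.00, and taking the brightest probe over these 2 arrays turned its difference to 1.25.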
